A study of Drosophila melanogaster with 3 samples.

Results

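Collier (Col) is the only transcription factor of the COE family (named after Collier, EBF and Olf-1) in Drosophila. The deposited list gives the positions at which peaks of Col binding were called in embryonic chromatin. Of the 559 summits in that list, spread over 409 gene labels, 8 carried the label Cha (1 summit), Cha/VAChT (1), Hdc (1) or olf413 (5), and these are described here. They were taken by label alone, with no use of their height. Each summit is 1 base wide and comes with a fold enrichment, the linear ratio that the peak caller assigned to it over a background that the sources used here do not name.

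Nuclear extract of fixed whole embryos at stage 13 to 14 was immunoprecipitated with a mix of 3 home made monoclonal anti-Col antibodies (Col-IP). The HA.11 antibody, which recognises the HA epitope tag, gave the control (mock-IP), and an Input DNA library had no antibody. The embryos used for ChIP carried a lacZ reporter transgene driven by a modified col enhancer. The Col-IP and mock-IP libraries each combined the material of 2 IPs. With 1 library per group, there is no spread between replicates, and no difference below was tested. Values of the mock-IP and of the input were not analysed here. The list gives no read counts and the depth behind a single summit is unknown. The chromatin came from whole embryos, so a summit does not tell in which cells Col was bound.

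A neuron is classed by the transmitter it releases, which requires an enzyme that makes the molecule and a transporter that loads it into synaptic vesicles. Cha (ChAT in the current RefSeq gene table) encodes choline acetyltransferase, the enzyme that makes acetylcholine, the main excitatory transmitter of the insect brain. VAChT, nested within the Cha gene, encodes the transporter that fills vesicles with acetylcholine. Hdc encodes histidine decarboxylase, which makes histamine, the transmitter of fly photoreceptors. The product of olf413 is predicted from its sequence to be a copper monooxygenase resembling vertebrate dopamine beta-hydroxylase. The closest well-studied fly enzyme of this kind is Tbh, which makes octopamine. A role in transmitter synthesis is thus established for Cha and Hdc, while VAChT is a transporter and the activity of olf413 is a prediction. The COE protein of Caenorhabditis elegans, UNC-3, is needed for motor neurons to acquire their cholinergic features. In the fly, the study detected no Col binding at the upstream region of Cha that drives its expression in cholinergic neurons. It also reported none at the genes for acetylcholine esterase and acetylcholine receptors. By its account, a cholinergic interneuron in each hemisegment expresses Col, while embryonic motor neurons do not.

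COE proteins bind as dimers to a palindrome with the core CCCNNGGG, in which N is any base. The study searched 200 bp around every summit for such a motif and listed at most 1 site of 15 bases for each. All 8 summits had a listed site, as did 97.0% of the 559 summits. The sites at Cha and olf413 are shown because they are the sequences on which binding at these genes would rest. Positions are counted from 1 at the first base, so that the core occupies positions 5 to 12, and capitals mark bases that match its 6 specified positions. Coordinates are those of dm3. The list orients each site by the motif and gives no genomic strand. The number before each position is the fold enrichment of the summit.

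Cha, 3.3, chr3R:14550630-14550644: tatgCCCtgGGGagc
Cha/VAChT, 2.06, chr3R:14534485-14534499: aactCCCagtGGaca
olf413, 3.95, chr3L:22192397-22192411: aatcCCCcaGtGcat
olf413, 3.43, chr3L:22188488-22188502: caacCCCcaGGGgcc
olf413, 2.85, chr3L:22193635-22193649: tagcCCCgaGGGgga
olf413, 2.5, chr3L:22190791-22190805: cattCCCtgGGGtcc
olf413, 2.34, chr3L:22167697-22167711: tggtCCCctGGGtga

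The complete core was present in 6 of the 8 sites, those of Hdc, Cha and 4 of the 5 olf413 summits, against 42.6% of the 542 summits with a listed site. The other 2 sites missed a single base of GGG, G11T at the highest olf413 summit and G10T at Cha/VAChT, where the first letter is the base of the core and the last that of the site. With the additional A of CCCNNGGGA, read on either strand, the count was 4 of 8 (Hdc, Cha and the olf413 summits at 2.5 and 2.34), close to the 37.5% of all summits with a site. These sites were found through the motif itself, so the matches describe the listed sites.

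A feature noticed after the sites were seen was the spacer between CCC and GGG. It was CA, or TG on the opposite strand, in 5 of the 8 sites, against 27.5% of all summits with a site. Together with a complete core, as CCCCAGGG or CCCTGGGG, it was found in 4 of the 8: Hdc, Cha and the olf413 summits at 3.43 and 2.5. This core was held by 9.59% of all summits with a site, and by 22.5% of those with a complete core, as against 4 of the 6 members with one. It was present at all 3 gene regions. CA was also the most used spacer of the whole list as printed, at 117 of 542 summits. The median fold enrichment was 3.31 for the 52 summits with this core, against 3.07 for all sites with a complete core and 2.85 for all summits.

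The listed sites lay close to the 8 summits. Their centres were between 2 and 16 bp from the summit, with a median of 11 bp against 18 bp for all summits with a site. All 8 lay within 25 bp, a distance reached at 62.4% of the 559 summits, and 47.2% of the summits with a site were as near as the farthest of the 8. The site was to the right of the summit in 6 and to the left in 2, both of them at the Cha gene. Summit positions in the list follow a grid of 10 bp, so differences of a few bp between members are below its resolution.

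**Figure D1:**
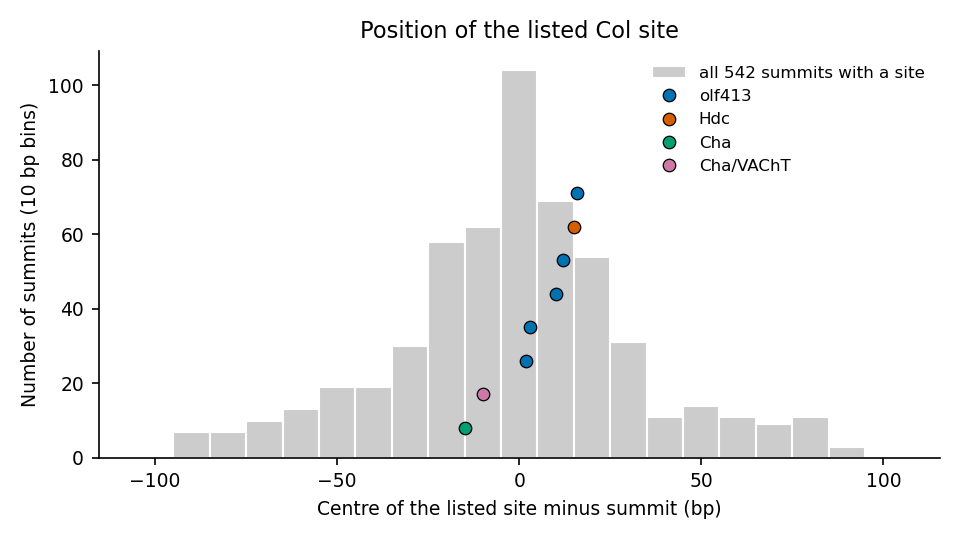
Grey bars give the number of summits by the distance in bp from the summit to the centre of its listed site, for all 542 summits with a site, in bins of 10 bp; coloured dots mark the 8 summits at Cha, Cha/VAChT, Hdc and olf413, and their height on the axis has no meaning. The 8 dots lie between -15 and 16 bp.

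The heights of the 8 summits were moderate. They ran from 2.06 at Cha/VAChT to 3.95 at olf413, with a median of 3.08 against 2.85 for all summits, whose quartiles were 2.38 and 3.74 and whose highest value was 16.17. The highest olf413 summit and that of Hdc lay above the upper quartile, and the lowest olf413 summit and that of Cha/VAChT below the lower one. At least 3-fold enrichment was given for 4 of the 8, against 44.9% of the whole list. Among the members, the order of heights was not that of the match to the motif. The sites lacking a core base belonged to the highest and to the lowest of the 8 summits. Over the whole list, median fold enrichment was 3.07 for sites with all 6 core bases, 2.79 for those with 5 and 2.69 for those with 4.

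**Figure D2:**
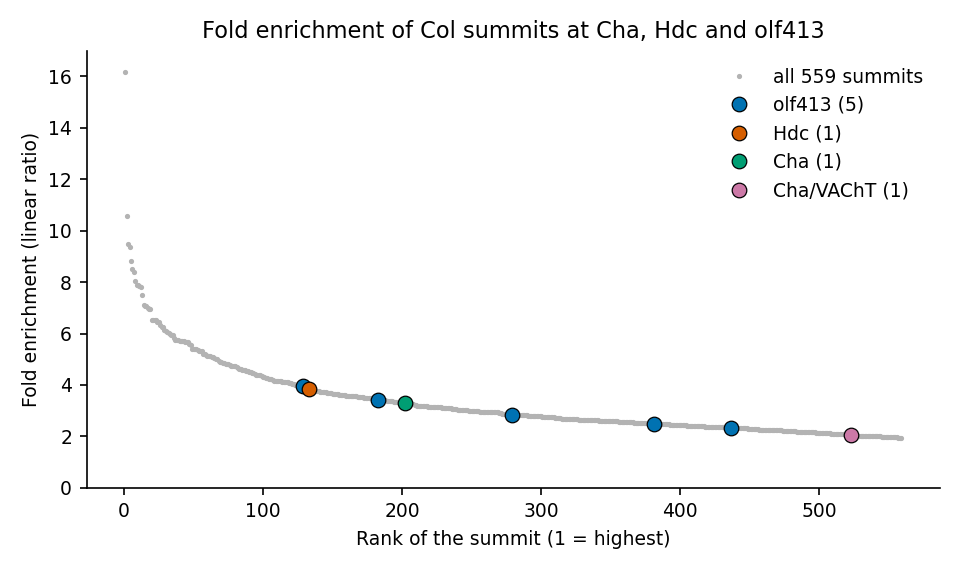
Fold enrichment (linear ratio) of all 559 summits is plotted against rank, grey dots, with the summits of olf413, Hdc, Cha and Cha/VAChT as coloured dots. The 8 coloured dots lie between rank 129 and rank 523, outside the steep upper end of the list.

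At the Cha gene, Col summits were called at 2 positions of chromosome 3R. The summit labelled Cha, at 14550652, had a fold enrichment of 3.3 and rank 202. The summit labelled Cha/VAChT, at 14534502, had 2.06 and rank 523, with 6.26% of all summits lower. They were 16150 bp apart. The joint label names both the enzyme gene and the transporter gene nested in it, and is 1 of 6 labels in the list that join a pair of genes. The annotation of the study places both summits inside the gene, a class it describes as intronic. This was not checked against gene models of dm3. The 3 other protein-coding genes that overlap ChAT in the RefSeq table, CG34283, CG7714 and CG7715, had no summit label, nor had its flanking genes CG34282 and CG14302. Outside the locus, the nearest summit to that of Cha was labelled gukh, 271300 bp away. The Cha site held 9 of the 12 specified bases of the longer in vitro EBF sequence, which adds ATT before and AAT after the core, and the Cha/VAChT site held 8.

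Hdc had a single summit, at 6126572 of chromosome 2R, with a fold enrichment of 3.84 and rank 133, so that 76.2% of the list was lower. The annotation of the study puts it on the 5' side of the gene. Its site was the best match of the 8, with all 6 core bases and 11 of the 12 bases of the longer sequence, a score of 11 or more that only 13 of the 542 summits with a site attained. The median was 8 over all of them and 8.5 over the 8. The site centre lay 15 bp from the summit. None of its neighbours, Hr3, CG12914 and the overlapping CG12209, had a label. The nearest summit, 30720 bp away, was labelled CAP.

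The olf413 gene carried 5 summits on chromosome 3L, all inside the gene by the annotation of the study. In order along the chromosome, they lay at 22167702 (fold enrichment 2.34), 22188492 (3.43), 22190782 (2.5), 22192392 (3.95) and 22193632 (2.85). The first stood apart by 20790 bp. The other 4 followed each other at 2290, 1610 and 1240 bp and fell within 5140 bp, with higher and lower summits alternating. The full span was 25930 bp. The highest value was 1.69 times the lowest, and the median was 2.85, equal to that of the whole list. The nearest summits of another label were those of msopa, the flanking gene, from 90570 bp for the first summit to 116500 bp for the last. The flanking gene on the other side, Rich, had no label.

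**Figure D3:**
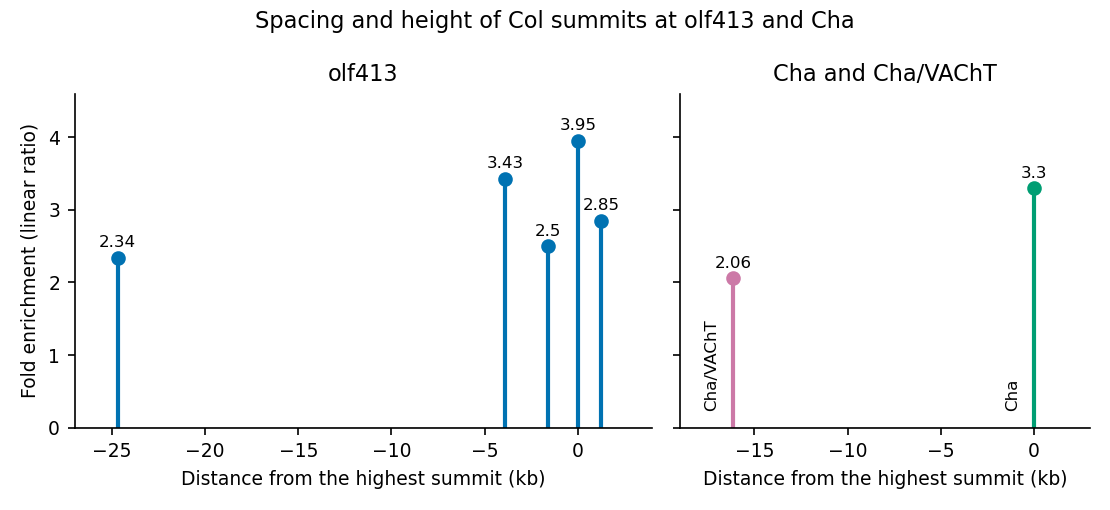
Each line is a summit, with its fold enrichment (linear ratio) as height and its distance in kb from the highest summit of the gene on the horizontal axis, for olf413 (left, 5 summits) and the Cha gene (right, 2 summits). The olf413 summits form a group of 4 within 5140 bp and a single one 20790 bp from it.

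Few labels had as many summits as olf413. Only sick (9), sli (7) and Oaz (6) had more, while hth and CG34380 also had 5. A group of 4 or more within 10 kb occurred at 7 labels, olf413 among them, which is 1.71% of all labels. Only the 13 labels with at least 4 summits could hold such a group. Among these 13, the shortest stretch that held 4 was 2430 bp at sli and 4420 bp at Oaz, followed by the 5140 bp of olf413. At hth, by contrast, it was 77890 bp. The complete core was found at 4 of the 5 olf413 sites, a share like that of snky and CG42342, with 3 of 4 each. Lower shares were seen at the rest of the 13, among them sick (2 of 9), CG34380 (2 of 5) and hth (none of 5). The share was 2 of 4 at px and none of 4 at CG14872. By the difference in median fold enrichment, the labels most like olf413 among those with 4 to 6 summits were snky (0.03), px (0.04) and CG14872 (0.15), with 4 summits each. Of these, snky and CG14872 also had all 4 close together, within 5250 and 6260 bp, while those of px extended over 22870 bp.

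To place these genes among others of the same pathways, 83 genes for the synthesis, transport, breakdown and reception of transmitters were looked up in the labels. A summit was assigned to 8 of them: ChAT, VAChT, Hdc and olf413, plus 4 that are not members, Gad1, VGlut, Vmat and GluRIIB. Apart from the members, 4 of 79 genes (5.06%) had a label, against 2.92% of the protein-coding genes in the RefSeq table. The 83 genes were chosen with earlier results of these data known, so this share and those below are descriptions only. Gad1 encodes glutamate decarboxylase, which makes GABA, and had 1 summit of 3.96 (rank 128). VGlut encodes the vesicular glutamate transporter and had summits of 6.02 (rank 32) and 3.71 (rank 143), the former above every member. The sites of Gad1 and VGlut are given in the same notation for comparison with those of Cha.

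Gad1, 3.96, chr3L:4077166-4077180: agctCCCacaGGgat
VGlut, 6.02, chr2L:2404484-2404498: ttttCCCaaGGGtcc
VGlut, 3.71, chr2L:2393929-2393943: tctcCCCcaGGGagc

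The Gad1 site missed a core base at the position that Cha/VAChT missed (G10A), and both VGlut sites had the complete core. In the second VGlut site it was the CCCCAGGG seen at Cha, Hdc and olf413.

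Vmat, the vesicular transporter for dopamine, serotonin and octopamine, had a low summit of 2.28 (rank 453), and GluRIIB, a glutamate receptor subunit of the neuromuscular junction, one of 2.1 (rank 512). The site at this low GluRIIB summit also held the complete core with a CA or TG spacer. Without the receptors, 3 of the 30 genes that are not members had a summit. Of the 49 receptor genes, 1 had a summit (2.04%), near the 2.92% of all protein-coding genes. At that share, a list of 10 or 13 genes would usually hold no labelled gene, so the absences that follow are not results about these lists. In the cholinergic group, ChT (choline uptake) and Ace (acetylcholine breakdown) had none, and neither had the 13 acetylcholine receptor genes. Among histamine genes, none was found for t, e, CarT, BalaT, HisCl1 or ort, which serve recycling and reception. The 10 genes for synthesis of dopamine, serotonin, octopamine and tyramine had none. These included ple (tyrosine hydroxylase), Ddc and Tdc2, as well as Tbh, the known enzyme nearest in kind to olf413. A label names only the gene to which a summit was assigned, and a list of called peaks does not show that Col was absent elsewhere.

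**Figure D4:**
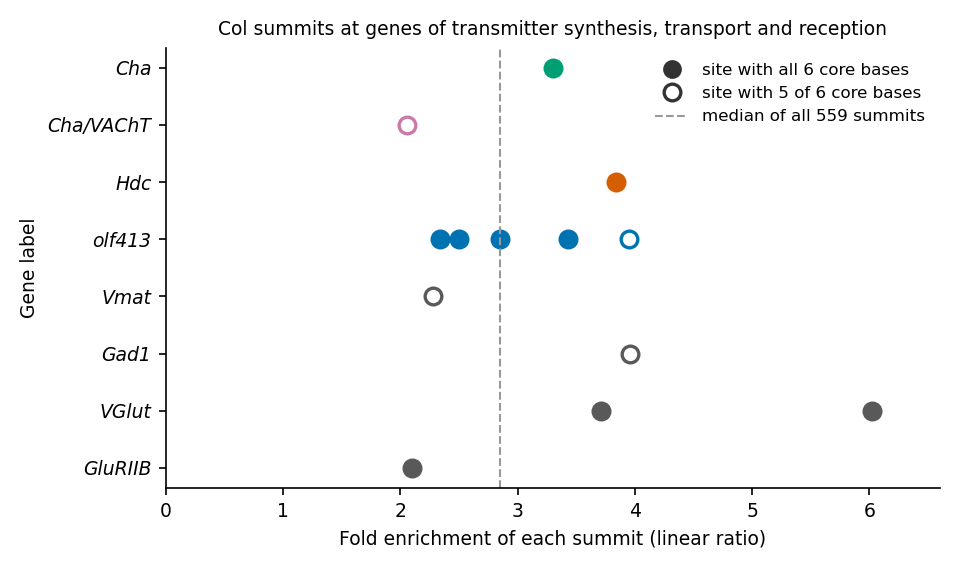
Dots give the fold enrichment (linear ratio) of each summit at the transmitter genes with a label, filled where the site held all 6 core bases and open where it held 5; the dashed line is the median of all 559 summits, 2.85. The members range from 2.06 to 3.95, and VGlut reaches 6.02.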

How the data were processed

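ChIP-seq libraries of stage 13 to 14 embryos were made from a Col-IP, a mock-IP and input DNA, 1 library each. The authors aligned reads to BDGP release 5 (dm3) with Bowtie 0.12.7 and called peaks with SISSRs v1.4 (p-value threshold 0.1, E-value threshold 1500, 1 read per coordinate). The deposited fold enrichment is a linear ratio, and gene labels came from PeakAnalyzer or curation. The lenient thresholds admit low summits. The depth per summit is unknown.

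Summits were selected by label and joined to the nearest 15-base site of the study within 100 bp. Match counts, spacing and ranks were computed in Python 3.11.15 with numpy 2.4.6 and drawn with matplotlib 3.10.9. Site distances, core matches, window counts, merging and medians were checked on simulated data, but ranks and the spacing between summits were not. Of 414 gene names in the labels, 409 matched the RefSeq table, whose assembly (Release 6) differs, so it served for names and neighbouring genes only. With 1 library no test was made. The members, gene lists and rule for named genes (members, list genes with a summit, labels most like olf413, nearest summits and neighbouring genes) were chosen with earlier results of these data known. Other labels with at least 4 summits were named after their values were seen. The alternatives tried were a minimum of 3 for the fold enrichment, merging within 200 bp, and other distances, windows, motif readings and names.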

Additional observations from a re-analysis of the deposited data

How the results depend on the processing

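Keeping only summits of at least 3-fold enrichment left 4 of the 8 summits, 2 olf413 summits in 1 window of 10 kb instead of 4, and 5 transmitter genes with a summit instead of 8, as fewer summits must give. The number of summits did not change when summits within 200 bp were merged or other names accepted, and all 8 kept a site within 50 or 25 bp. The median fold enrichment was 3.57 with the highest summit per label and 3.3 without olf413. Taking the highest summit can only keep or raise the value of a label. No such median is given here for the whole list, so 3.57 has no like value beside it. The complete core was found in 6 sites, CCCNNGGGA in 4, and the core with at most 1 mismatch in all 8. A window of 5 kb held 3 olf413 summits and one of 20 kb held 4. No paired analysis was possible because each group has a single library. Strand and intron positions were not computed, since no dm3 genome was used here.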
